A study of Mus musculus with 18 samples.

Results

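Mature miRNAs were compared between B16 cells treated with PB-4 and B16 cells treated with ATRA. The comparison used every row of the mature miRNA count table (1978 miRNAs) and 6 of the 18 libraries of the series, ATRA replicates 1 to 3 and PB-4 replicates 1 to 3, and 1249 miRNAs with at least 10 counts summed over these 6 libraries were tested. B16 is an established mouse melanoma line, whose labels name skin as the source. ATRA is all-trans retinoic acid, which activates retinoic acid receptors. PB-4 is sodium 4-phenylbutanoate, a histone deacetylase inhibitor and chemical chaperone. Both were used in the study to induce differentiation of the melanoma cells. The labels name no genetic change in either group. Both were the same cell line and differed, per the labels, only in the agent. No dose or treatment time could be assigned to the libraries from the sources used here, so PB-4 and ATRA were compared at 1 unstated condition each. Libraries of untreated B16 cells (control, 3 in the same assay) are shown beside the treated ones where they bear on a value. The labels do not say whether replicates came from separate cultures, so each p-value reflects the spread among these libraries alone, which may be technical.

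A miRNA is cut from a hairpin in a longer transcript, and each hairpin can give a mature strand from its 5′ arm (5p) and its 3′ arm (3p), of which the less abundant is often called the passenger strand. The mature strand guides Argonaute to mRNAs that pair with its seed, bases 2 to 8, and lowers their translation and stability. miRNAs of 1 family share a seed, miRNAs of 1 cluster are cut from the same transcript, and many hairpins lie in introns of host genes. In the melanocyte lineage the best-known miRNA is miR-211, which lies in an intron of the melastatin gene Trpm1.

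To show which miRNAs with large differences share a seed, their sequences are given as mature sequences from RefSeq (GRCm38.p6), written 5′ to 3′ with the seed in capitals. Of the 1249 tested miRNAs 1092 had a sequence there, and of the 183 that differed 169. The first set was higher in PB-4-treated than in ATRA-treated cells.
miR-139-5p: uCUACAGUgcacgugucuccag
miR-203-3p: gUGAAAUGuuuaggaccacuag
miR-344-3p: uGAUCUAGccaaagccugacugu
miR-344c-3p: uGAUCUAGucaaagccugacagu
miR-344d-3p: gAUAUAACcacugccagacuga
miR-344d-3-5p: aGUCAGGCuagugguuauacucc
miR-129-2-3p: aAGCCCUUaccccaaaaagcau
miR-129-5p: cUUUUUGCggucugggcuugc
miR-449a-5p: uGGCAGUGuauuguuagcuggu
miR-449c-5p: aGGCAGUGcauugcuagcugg
miR-224-5p: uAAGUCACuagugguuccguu
miR-218-5p: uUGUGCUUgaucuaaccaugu
miR-615-3p: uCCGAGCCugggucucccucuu
miR-542-3p: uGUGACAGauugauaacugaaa
miR-322-5p: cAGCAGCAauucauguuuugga
miR-126a-3p: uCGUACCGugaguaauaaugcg

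The second set was lower in PB-4-treated than in ATRA-treated cells. miR-221-3p and miR-222-3p share a seed, as do miR-30c-5p and miR-30e-5p.
miR-222-3p: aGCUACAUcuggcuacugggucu
miR-221-3p: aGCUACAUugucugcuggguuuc
miR-30e-5p: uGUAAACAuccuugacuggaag
miR-30c-5p: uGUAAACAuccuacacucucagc
miR-30e-3p: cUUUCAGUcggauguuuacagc
miR-30c-1-3p: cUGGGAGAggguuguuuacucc
miR-9-5p: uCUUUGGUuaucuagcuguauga
miR-211-5p: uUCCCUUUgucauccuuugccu
miR-671-3p: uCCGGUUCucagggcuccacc
miR-92a-3p: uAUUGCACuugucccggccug

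The 6 libraries held 4214693 to 6856229 counts, and the 10 most abundant miRNAs took a similar share in both groups (51.0 to 53.9% under ATRA and 50.9 to 52.5% with PB-4). The TMM scaling factors differed by group. Taken over all 9 miRNA libraries, as for the CPM below, they were 0.777 to 0.991 in the ATRA libraries and 1.00 to 1.11 with PB-4. For fold changes the factors were set anew from the tested miRNAs of the 6 libraries. The median log2 fold change of all tested miRNAs was 0.16 with TMM, 0.07 with RLE size factors and 0.37 with library totals only. Directions of small changes therefore depend on the scaling. Libraries of both groups also shared deviations. A principal component with 34.7% of the variance set ATRA replicate 2 against PB-4 replicate 2, apart from the first component (49.4%), on which all ATRA replicates lay below all PB-4 replicates. Entries such as miR-6240, chosen after its values were seen (261, 1822 and 45.5 CPM in ATRA replicates 1 to 3, and 507, 51.5 and 886 CPM in PB-4 replicates 1 to 3) varied along it, and miR-6240 did not pass the test (adjusted p = 0.904). What these entries reflect was not tested.

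PB-4-treated cells differed from ATRA-treated cells in 183 miRNAs (14.7% of those tested by edgeR's quasi-likelihood test with Benjamini-Hochberg adjustment at 0.05). Of these, 118 were higher in PB-4-treated cells (9.45%) and 65 were lower (5.2%), while at a change of at least 2-fold 81 were higher (6.49%) and 18 were lower (1.44%). All levels are CPM, each count as a share of the TMM-scaled library, and log2 fold changes (± standard error) are PB-4 over ATRA, so a positive value is higher with PB-4. Among the 257 tested miRNAs with a mean of 50 CPM or more, 57 were higher and 54 lower, with a median size of 0.70 on the log2 scale. Among the 992 less abundant ones 61 were higher and 11 lower, with a median size of 2.51. The split of calls moved with the processing. With another scaling alone, the counts were 96 higher and 76 lower by RLE size factors and 183 and 36 by library totals only. They were 109 and 96 with DESeq2, which changes the test too, and 119 and 100 with filterByExpr, which left 634 miRNAs to test. They also fell without single PB-4 libraries, to 62 higher and 26 lower without PB-4 replicate 1, 76 and 52 without PB-4 replicate 2, and 69 and 32 without PB-4 replicate 3. CPM of the groups did not overlap for 29.3% of all tested miRNAs, which is the background for each statement of that kind.

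**Figure D1:**
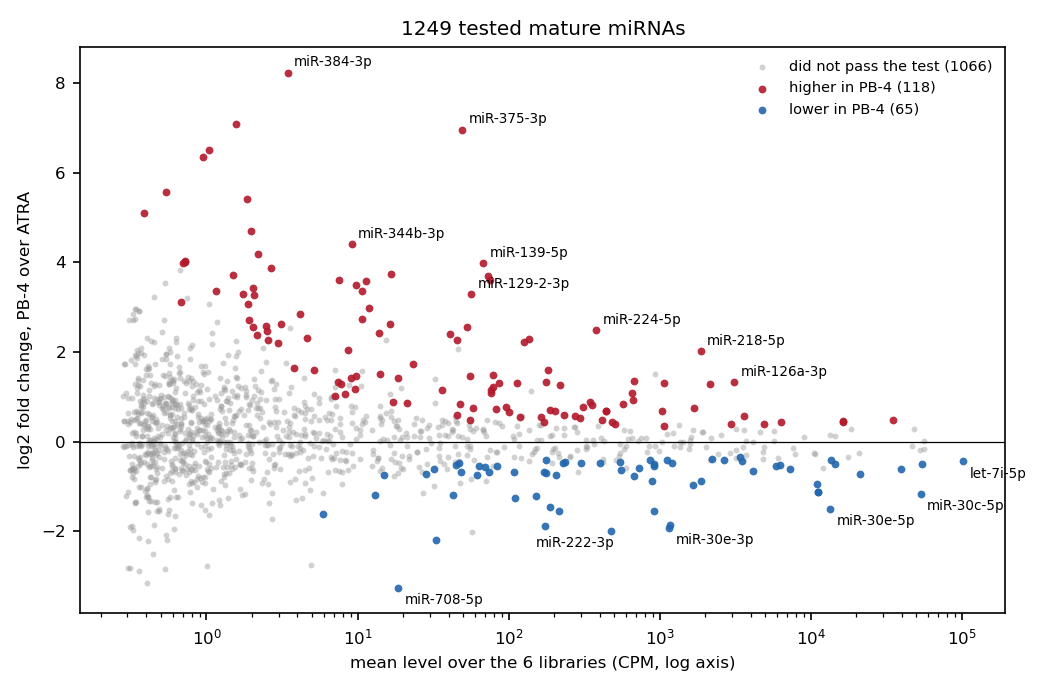
Each point is 1 of the 1249 tested mature miRNAs, with its mean level over the 3 ATRA and 3 PB-4 libraries (CPM, log axis) against its log2 fold change, PB-4 over ATRA. The 118 miRNAs higher in PB-4 (red) include miR-375-3p at a log2 fold change of 6.97 and reach from under 1 CPM upward, where fits of miRNAs with 0 counts in ATRA, such as miR-384-3p, depend on the prior count, while the 65 lower ones (blue) lie mostly at higher levels.

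The largest increases among miRNAs of 50 CPM or more were in miR-139-5p, miR-203-3p, miR-344-3p and miR-129-2-3p, which were 9.78-fold to 15.9-fold higher in PB-4-treated cells. miR-139-5p, known to be cut from an intron of the phosphodiesterase gene Pde2a and to be lost in several tumours, lay at 7.51, 7.09 and 10.1 CPM in ATRA replicates 1 to 3 and at 133, 110.0 and 141 CPM in PB-4 replicates 1 to 3. Every PB-4 library was above every ATRA library (log2 fold change 3.99 ± 0.19, adjusted p = 1.01e-06). miR-203-3p, which drives differentiation of keratinocytes and targets p63, rose from 9.57, 10.3 and 12.3 CPM to 138, 136 and 134 CPM. Its groups stood far apart (log2 fold change 3.70 ± 0.17, adjusted p = 7.55e-07), and its spread within PB-4 was small (SD 2.24 CPM). In control libraries miR-139-5p was at 6.47, 4.85 and 5.26 CPM and miR-203-3p at 11.7, 16.5 and 9.76 CPM, near the ATRA levels.

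miR-129-2-3p, from 1 of the 2 miR-129 hairpins and known in neurons and endocrine cells, rose from 9.20, 10.8 and 12.2 CPM to 101, 92.6 and 114 CPM (log2 fold change 3.29 ± 0.18, adjusted p = 1.53e-06). Its other arm is miR-129-5p, which both hairpins can give and which was more abundant. It rose from 1355, 1091 and 1357 CPM to 2945, 3017 and 3061 CPM (log2 fold change 1.29 ± 0.10, adjusted p = 2.65e-05). Its counts stood in a nearly fixed ratio (1.97 to 2.06) to those of miR-129b-3p, on the opposite strand of the same place. These 2 may therefore share reads. miR-449a-5p, a member of the miR-34 and miR-449 family found in multiciliated cells that represses cell cycle genes, was at 19.7, 10.99 and 16.9 CPM with ATRA and at 86.2, 97.3 and 87.4 CPM with PB-4 (log2 fold change 2.56 ± 0.21, adjusted p = 2.88e-05). Groups did not overlap for miR-129-2-3p, miR-129-5p and miR-449a-5p.

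miR-218-5p, known from motor neurons and from introns of the axon guidance genes Slit2 and Slit3, was the most abundant of the 12 largest increases. Its levels were 878, 645 and 764 CPM with ATRA and 3074, 2765 and 3107 CPM with PB-4 (log2 fold change 2.01 ± 0.11, adjusted p = 1.53e-06). miR-224-5p, cut from an intron of the GABA receptor gene Gabre, was at 129, 104 and 120.3 CPM and 635, 636 and 649 CPM (log2 fold change 2.49 ± 0.11, adjusted p = 6.47e-07). miR-615-3p, from an intron in the HoxC cluster, was at 48.2, 39.6 and 48.7 CPM and 193, 215 and 213 CPM (log2 fold change 2.23 ± 0.13, adjusted p = 2.99e-06). Their PB-4 and ATRA libraries did not overlap, and all 3 calls held under each of the 14 alternatives.

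miR-126a-3p, the miRNA of endothelial cells that lies in Egfl7, was higher at a high level. Its CPM was 2114, 1480 and 1832 with ATRA and 4641, 4160 and 4404 with PB-4 (log2 fold change 1.33 ± 0.11, adjusted p = 3.30e-05), and 1919, 1784 and 1583 in control libraries. miR-375-3p, a miRNA of pancreatic islet cells and of epithelia, showed the largest fold among miRNAs detected in every library. It was at 0.563, 0.687 and 1.06 CPM with ATRA (3, 3 and 6 counts) and at 100.1, 77.2 and 116 CPM with PB-4 (log2 fold change 6.97 ± 0.28, adjusted p = 6.47e-07). Control libraries held 0.308, 1.29 and 0.751 CPM, or 2, 8 and 3 counts.

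**Figure D2:**
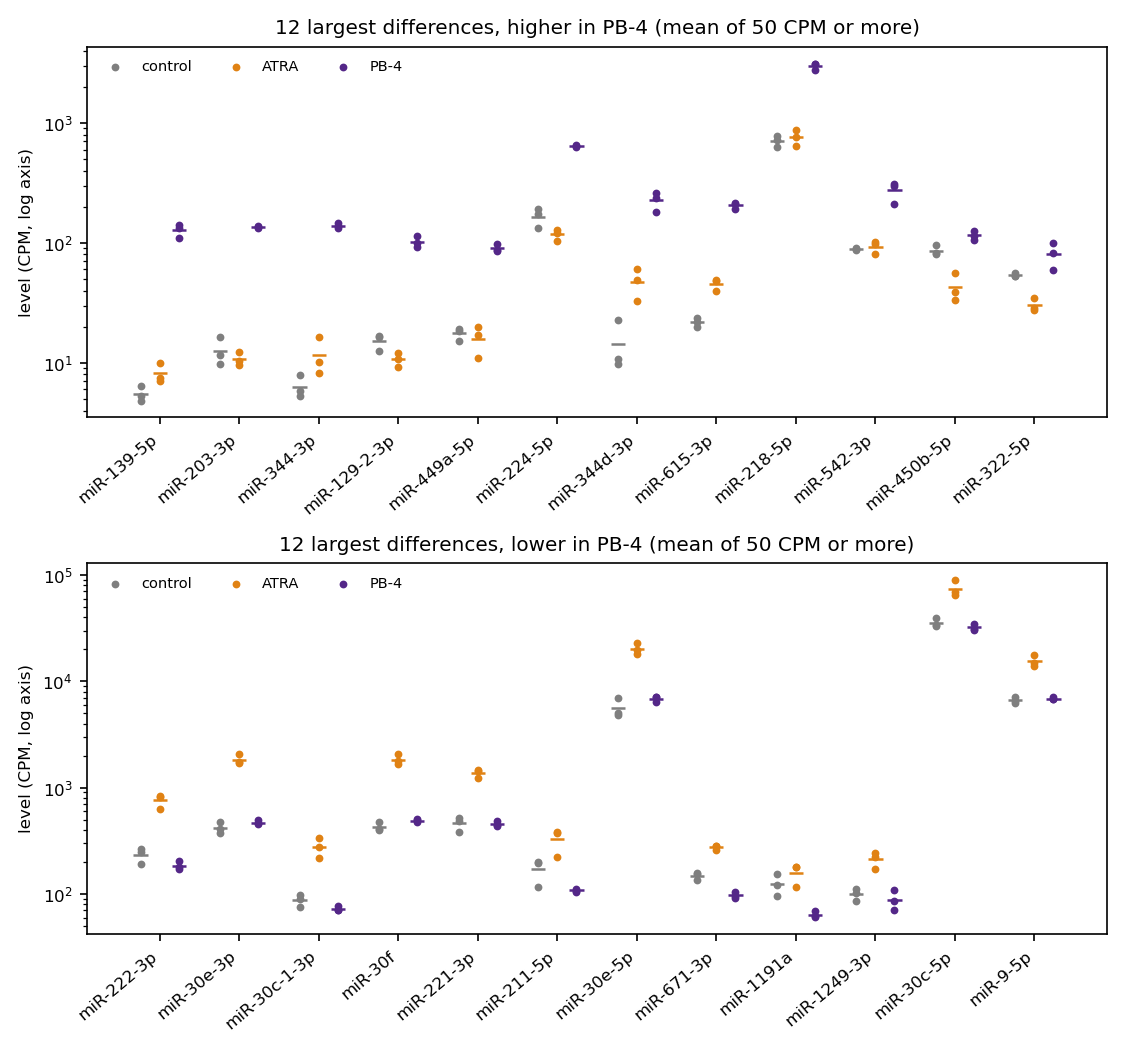
Level of each miRNA in every library (CPM, log axis), with 3 control (grey), 3 ATRA (orange) and 3 PB-4 (purple) libraries and the group mean as a bar, for the 12 largest differences in each direction among miRNAs with a mean of 50 CPM or more. ATRA and PB-4 points do not overlap in any entry, and miR-139-5p has the largest fold (15.9).

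The miR-344 family, a mouse family encoded in a tandem array on chromosome 7, was the list with the highest median. Of 13 tested members 8 were higher and 0 lower in PB-4-treated cells, against 9.45% higher among all tested miRNAs. The higher count was 6 to 7 with any 1 library left out. Among the 8, miR-344-3p and miR-344b-3p share a run of 18 bases and may share reads. The median log2 fold change of the 13 was 2.84 against 0.16 for all tested miRNAs. miR-344-3p rose from 10.1, 16.5 and 8.29 CPM to 137, 132 and 146 CPM (log2 fold change 3.60 ± 0.27, adjusted p = 3.30e-05). miR-344c-3p, with the same seed, rose from 2.25, 2.52 and 2.29 CPM to 29.8, 24.2 and 39.2 CPM (log2 fold change 3.74 ± 0.25, adjusted p = 8.77e-06). All PB-4 libraries were above all ATRA libraries for both. miR-344d-3p, whose 3 copies give 1 mature sequence, rose from 32.5, 49.2 and 60.7 CPM to 180.5, 238 and 259.6 CPM (log2 fold change 2.28 ± 0.27, adjusted p = 0.00134). Its control libraries lay lower still, at 9.85, 22.6 and 10.8 CPM.

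miR-344d-3-5p, the 5p arm of the third miR-344d copy (chr7:61726296-61726318, minus strand) and the miRNA on which the study centred, was at low levels. Its counts were 20, 29 and 43 in ATRA replicates 1 to 3 and 59, 85 and 76 in PB-4 replicates 1 to 3, or 3.75, 6.64 and 7.59 and 10.7, 12.8 and 16.3 CPM. Every PB-4 library was above every ATRA library, and the difference was just past the threshold (log2 fold change 1.17 ± 0.33, adjusted p = 0.0409). It held in 6 of 14 alternatives, and leaving out any single library ended the call (adjusted p up to 0.15 over the alternatives). Control libraries had 7, 16 and 3 counts.

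The miR-322 and miR-503 cluster, a group of 7 hairpins on the X chromosome that includes miR-15 and miR-16 relatives acting on cell cycle genes, was higher in PB-4-treated cells in most of its strands. Of 13 tested mature strands 10 were higher and 0 lower (8 to 10 higher with any 1 library left out), against 9.45% higher over all tested miRNAs, with a median log2 fold change of 0.89. miR-542-3p, which targets survivin, rose from 80.1, 102 and 97.0 CPM to 309, 299 and 212 CPM (log2 fold change 1.60 ± 0.19, adjusted p = 4.74e-04). miR-450b-5p rose from 56.1, 33.4 and 39.2 CPM to 125.4, 115 and 106 CPM (log2 fold change 1.48 ± 0.18, adjusted p = 3.38e-04). miR-322-5p, the mouse form of miR-424 that induces G1 arrest and muscle differentiation, rose from 34.9, 27.5 and 28.6 CPM to 99.7, 82.0 and 59.2 CPM (log2 fold change 1.46 ± 0.21, adjusted p = 0.00109). For miR-322-5p and miR-542-3p the lowest PB-4 value was in replicate 3, and no PB-4 library fell into the ATRA range. Set beside the same control libraries, which both comparisons share, the log2 fold change of miR-322-5p was -0.98 ± 0.18, adjusted p = 0.0137 for ATRA and 0.55 ± 0.18, adjusted p = 0.0645 for PB-4.

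Among miRNAs lower in PB-4-treated cells, the cluster of miR-221 and miR-222 and the miR-30c-1/30e cluster led, and both had lower levels in every PB-4 library than in any ATRA library. miR-221 and miR-222 repress the cell cycle inhibitor p27 and the receptor Kit and are known as oncogenic miRNAs of melanoma. miR-222-3p (chrX:19146901-19146923, minus strand) was at 822, 632 and 829 CPM with ATRA and 179.8, 203 and 172 CPM with PB-4 (log2 fold change -1.99 ± 0.14, adjusted p = 9.59e-06). miR-221-3p was at 1438, 1234 and 1465 CPM and 437, 490.3 and 442 CPM (log2 fold change -1.55 ± 0.11, adjusted p = 1.24e-05). Their passenger strands followed, with log2 fold changes of -2.20 ± 0.26 for miR-221-5p (adjusted p = 3.17e-04) and -1.62 ± 0.30 for miR-222-5p (adjusted p = 0.00576). All 4 members passed under every alternative.

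The 2 hairpins miR-30e and miR-30c-1 lie in the gene Nfyc on chromosome 4 and gave 4 strands, all lower in PB-4-treated cells. miR-30 miRNAs are abundant in many cells and act on autophagy and epithelial genes. miR-30e-5p (chr4:120772660-120772681, minus strand) was at 22822, 19483 and 17857 CPM with ATRA and 7125, 7043 and 6432 CPM with PB-4 (log2 fold change -1.50 ± 0.11, adjusted p = 1.21e-05). The other arm, miR-30e-3p, was at 2063, 1759 and 1691 CPM and 493, 463 and 452 CPM (log2 fold change -1.92 ± 0.10, adjusted p = 1.53e-06). Counts of miR-30e-3p and of miR-30f, the opposite strand of the same place, were nearly equal (ratio 0.895 to 1.01), so they cannot be told apart. miR-30c-5p, which a second hairpin on chromosome 1 can also give, was at 88978, 68981 and 65436 CPM and 31302, 34472 and 30606 CPM (log2 fold change -1.16 ± 0.12, adjusted p = 1.36e-04). miR-30a-5p and miR-30d-5p, with the same seed, did not pass (-0.09, adjusted p = 0.84, and -0.18, adjusted p = 0.486), and their sign depended on the scaling. Over the 11 tested strands of the miR-30 family 4 were lower and 0 higher, against 5.2% lower over all tested miRNAs. These 4 were the strands of the 2 Nfyc hairpins. The median of the 11 strands was -0.36. The lower count was 7 without ATRA replicate 2, by DESeq2 or by filterByExpr, and 4 at the least.

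miR-9-5p, a miRNA of neural progenitors, was at 17639, 14872 and 13908 CPM with ATRA and 7050, 6788 and 6794 CPM with PB-4 (log2 fold change -1.12 ± 0.10, adjusted p = 3.30e-05). It comes from 3 hairpins, and its reads and those of miR-9b-3p, the opposite strand of the same place, were nearly equal in every library (ratio 0.995 to 1.01), so they cannot be told apart. miR-211-5p (chr7:64205831-64205852, plus strand), the melanocyte miRNA in Trpm1, was at 383, 221.5 and 374 CPM and 107, 105 and 111 CPM (log2 fold change -1.55 ± 0.18, adjusted p = 3.29e-04). ATRA replicate 2 was the lowest ATRA library, yet above all PB-4 libraries. miR-204-5p, which differs from miR-211-5p only outside the seed, had a log2 fold change of -1.72 ± 0.58 and did not pass (adjusted p = 0.0838).

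The miR-17-92 cluster and its paralogs, which promote proliferation, were lower in 7 of 24 tested strands and higher in 0, against 5.2% lower over all tested miRNAs, with a median of -0.48. miR-92a-3p was at 16806, 13724 and 13358 CPM with ATRA and 7219, 7488 and 7189 CPM with PB-4 (log2 fold change -0.95 ± 0.10, adjusted p = 1.31e-04). Summed over the list, levels were 42851 to 55509 CPM under ATRA and 29772 to 32586 CPM with PB-4. The number of lower strands depended on single libraries. It was 2 without PB-4 replicate 1, 2 without PB-4 replicate 3 and 8 at most, and it was 3 with library totals only. The let-7 family, which represses Ras, Hmga2 and Lin28, was lower in 9 of 22 strands (4 without ATRA replicate 1, 5 without ATRA replicate 3, 1 without PB-4 replicate 1, 2 without PB-4 replicate 3 and 11 at most) and higher in 0, against the same 5.2%, with a median of -0.41. By library totals only, 6 let-7 strands were lower and 2 higher, and by DESeq2 or filterByExpr 14 were lower. Among the 9 lower strands, let-7a-1-3p and let-7c-2-3p share a run of 22 bases and may share reads. let-7a-5p had a log2 fold change of -0.72 ± 0.10 (adjusted p = 0.00105). let-7i-5p, the most abundant miRNA of all, was at 144739, 96539 and 117158 CPM with ATRA and 79723, 89349 and 86070 CPM with PB-4. Its difference passed narrowly (-0.44 ± 0.13, adjusted p = 0.0462) and in 6 of 14 alternatives, and was lost without ATRA replicate 1, ATRA replicate 3, PB-4 replicate 1, PB-4 replicate 2 or PB-4 replicate 3, with an adjusted p of up to 0.315.

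Of the 10 most abundant miRNAs 5 passed the test. miR-30c-5p, let-7f-5p, let-7g-5p and let-7i-5p were lower, and miR-27b-3p, of the angiogenic miR-23, miR-27 and miR-24 cluster, was higher (0.48 ± 0.12, adjusted p = 0.0258, lost without any 1 library, with an adjusted p of up to 0.178). The call of let-7f-5p was lost without PB-4 replicate 1 or PB-4 replicate 3, with an adjusted p of up to 0.102, that of let-7g-5p was lost without ATRA replicate 1, ATRA replicate 3, PB-4 replicate 1 or PB-4 replicate 3, with an adjusted p of up to 0.198, and that of let-7i-5p was lost without ATRA replicate 1, ATRA replicate 3, PB-4 replicate 1, PB-4 replicate 2 or PB-4 replicate 3, with an adjusted p of up to 0.315. miR-26a-5p did not pass, at 56696 ± 7472 and 55368 ± 3045 CPM (SD, n = 3), with a fold change of 0.01 ± 0.10 on the log2 scale. miR-21a-5p, the abundant miRNA of tumours and inflammation, was at 44532 ± 6808 and 52600 ± 9648 CPM and did not pass (adjusted p = 0.381).

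**Figure D3:**
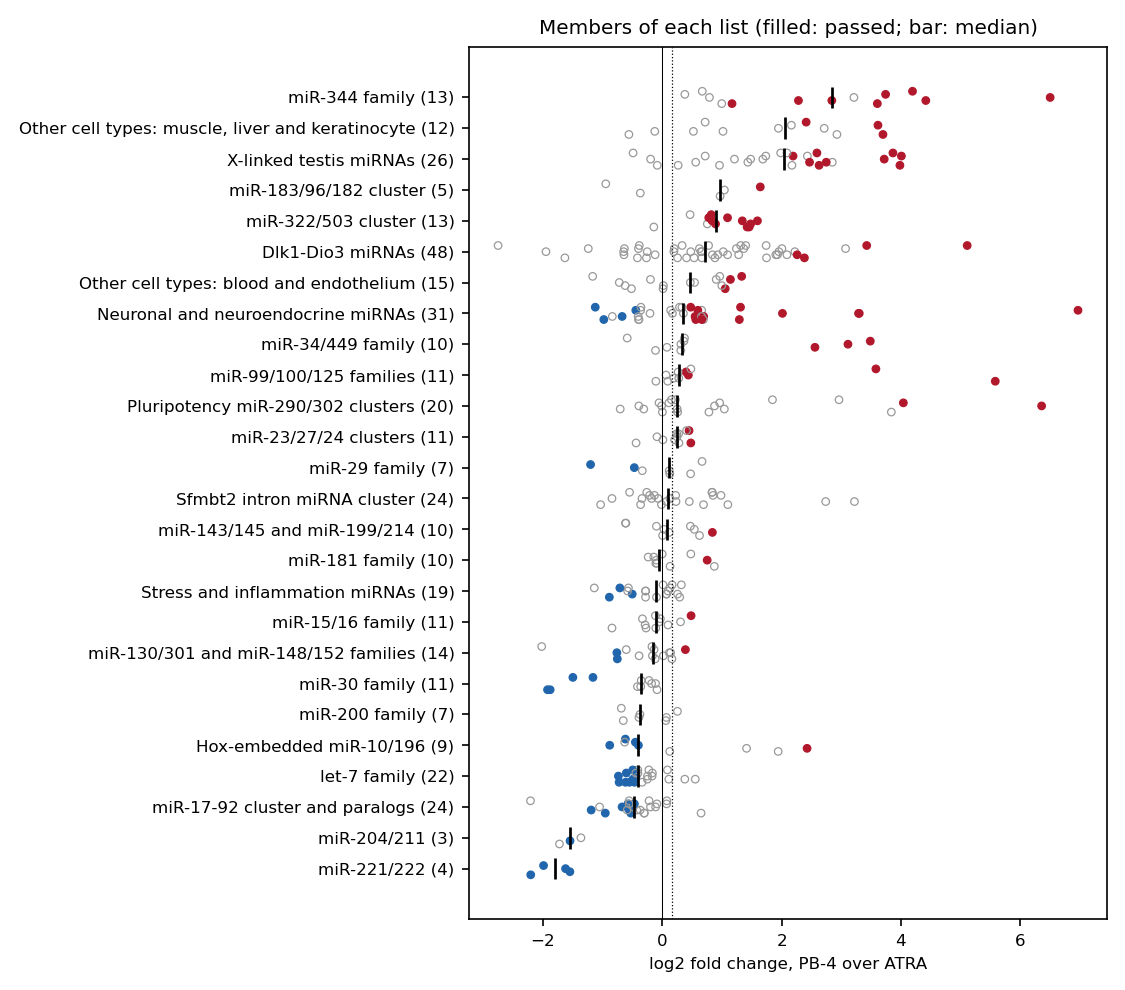
For each miRNA list, the log2 fold changes (PB-4 over ATRA) of its tested members, filled where the test was passed (red higher, blue lower), with a bar at the list median and a dotted line at the median of all tested miRNAs. The miR-344 family has the highest median (2.84) and the list of miR-221 and miR-222 the lowest (-1.81), against 0.16 over all tested miRNAs.

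The other lists held smaller or less abundant groups. The X-linked testis miRNAs, expressed in germ cells, were higher in 9 of 26 (4 without PB-4 replicate 1, 5 without PB-4 replicate 2, 4 without PB-4 replicate 3 and 8 at most), against 9.45% of all tested miRNAs, with a median of 2.04, and most of their levels were low. miR-881-3p rose from 3.38, 2.75 and 2.29 CPM to 19.9, 11.5 and 24.2 CPM (log2 fold change 2.75 ± 0.32, adjusted p = 2.60e-04). Neuronal and neuroendocrine miRNAs split, with 12 of 31 higher (7 without ATRA replicate 2, 5 without PB-4 replicate 1, 6 without PB-4 replicate 2 and 5 without PB-4 replicate 3) and 4 lower (2 without PB-4 replicate 1 and 2 without PB-4 replicate 3). By RLE size factors 7 were higher, and by library totals only 2 were lower. Over all tested miRNAs 9.45% were higher and 5.2% lower. The 12 include miR-129-5p and the opposite-strand miR-129b-3p, which may share reads. The imprinted Dlk1-Dio3 miRNAs were higher in 4 of 48, near the share of all tested miRNAs (9.45%), and in 1 without ATRA replicate 1, 6 without ATRA replicate 2, 1 without ATRA replicate 3, 0 without PB-4 replicate 1, 2 without PB-4 replicate 2 and 0 without PB-4 replicate 3. The Hox-embedded miR-10 and miR-196 list had 1 higher and 4 lower of 9, against 9.45% higher and 5.2% lower over all tested miRNAs. The lower count was 2 without ATRA replicate 1, 1 without PB-4 replicate 1, 1 without PB-4 replicate 3, 1 by library totals only and 2 with all 9 libraries. miR-10a-3p rose (2.43 ± 0.26, adjusted p = 1.86e-04), while its more abundant other arm miR-10a-5p had a log2 fold change of 0.13 (adjusted p = 0.854).

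Smaller counts were found elsewhere, and are read against 9.45% higher and 5.2% lower over all tested miRNAs. Shares of 2 of 20, 1 of 11 and 1 of 10 are near the former. In the families of miR-99, miR-100 and miR-125 4 of 11 were higher (1 to 4 with 1 library left out, and under 4 without any but ATRA replicate 1, with 7 by library totals only and 2 by RLE, by DESeq2 or with all 9 libraries), in the miR-34 and miR-449 family 3 of 10 (7 with library totals only) and in the miR-23, miR-27 and miR-24 clusters 2 of 11 (0 without PB-4 replicate 1 or PB-4 replicate 3, and 1 without any other library, with 6 by library totals only and 0 by RLE or with all 9 libraries). The miR-34 and miR-449 count was 2 without any 1 library, by RLE, DESeq2 or limma voom, with no filter and with the block. Pluripotency miRNAs of the miR-290 and miR-302 clusters were higher in 2 of 20 (0 without PB-4 replicate 3, and 1 without ATRA replicate 3, PB-4 replicate 1 or PB-4 replicate 2, with 6 by library totals only, 1 by DESeq2 and 0 by filterByExpr). Of the miR-29 family 2 of 7 were lower (1 without PB-4 replicate 1 or PB-4 replicate 3, and 1 by library totals only, where 2 were higher, or with all 9 libraries), and of the stress and inflammation miRNAs 3 of 19 were lower, among them both arms of miR-22 (1 without PB-4 replicate 1, and 5 without ATRA replicate 2 or PB-4 replicate 2). Of the latter, 5 to 7 were lower by DESeq2, limma voom, filterByExpr or with no filter, and 4 were higher by library totals only. The families of miR-130, miR-301, miR-148 and miR-152 had 1 higher (0 without any 1 library, by RLE or with all 9 libraries, and 3 by library totals only) and 2 lower of 14 (1 without ATRA replicate 3 or any PB-4 replicate, 1 by library totals only and 4 by DESeq2). Single strands were higher in the miR-15 and miR-16 family (1 of 11, and 0 without any 1 library, by RLE or by DESeq2), the miR-181 family (1 of 10, 0 without PB-4 replicate 3, and 3 by library totals only), the cluster of miR-183, miR-96 and miR-182 (1 of 5, and 0 without PB-4 replicate 1 or PB-4 replicate 3 or with all 9 libraries) and the list of miR-143, miR-145, miR-199 and miR-214 (1 of 10, and 2 by library totals only, limma voom or filterByExpr). miR-211-5p was the only call of the 3 tested strands of miR-204 and miR-211 (2 by limma voom, with no filter or with all 9 libraries). edgeR's test called 0 of 7 tested miR-200 miRNAs (0 at an unadjusted p under 0.05) and 0 of 24 miRNAs of the Sfmbt2 intron cluster (1 at an unadjusted p under 0.05), and DESeq2 and limma voom called 0 in both.

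Of the muscle, liver and keratinocyte list 3 of 12 miRNAs were higher and 0 lower, with a median of 2.06. Of the blood and endothelium list 3 of 15 were higher (5 by library totals only) and 0 lower, with a median of 0.47. Over all tested miRNAs 9.45% were higher and 5.2% lower, and lists this small hold few calls either way. The defining markers differed in part. Endothelial miR-126a strands summed to 1524 to 2167 CPM in ATRA libraries and 4268 to 4750 CPM in PB-4 libraries (both called). Of these, miR-126a-5p had nearly the same counts as the opposite-strand miR-126b-3p (ratio 0.909 to 1.04), so those 2 cannot be told apart. Keratinocyte markers summed to 9.57 to 12.9 CPM and 134 to 139 CPM, nearly all from miR-203-3p, while miR-205-5p lay under 1 CPM in all 6 libraries. Muscle markers summed to 9.38 to 21.2 CPM and 65.2 to 82.3 CPM, where miR-206-3p was the 1 called of 3. Blood markers (0 of 7 called) summed to 28.9 to 36.9 CPM and 19.5 to 38.4 CPM. Outside those 7, the blood list's miR-486a-3p was higher (5.07, 4.81 and 6.53 CPM and 11.9, 11.2 and 10.1 CPM, log2 fold change 1.06 ± 0.26, adjusted p = 0.0237, lost without ATRA replicate 1, ATRA replicate 2, PB-4 replicate 1, PB-4 replicate 2 or PB-4 replicate 3, with an adjusted p of up to 0.119), while miR-486a-5p (0.96 ± 0.29, adjusted p = 0.0578) and miR-486b-5p (1.00 ± 0.32, adjusted p = 0.074) did not pass. The liver marker lay at 2.25 to 4.94 CPM and 3.07 to 8.79 CPM. Fibroblast and smooth muscle markers summed to 423 to 443 CPM and 730 to 780 CPM (1 of 2 called, miR-143-3p). The melanocyte markers miR-211-5p and miR-204-5p summed to 227 to 385 CPM and 106 to 113 CPM. Their part in the results was not tested. In bulk libraries, fewer cells of a type and less RNA per cell cannot be told apart.

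Some miRNAs higher in PB-4-treated cells were close to absent in ATRA-treated cells. miR-384-3p, chosen after its values were seen, had 0 counts in all ATRA libraries and 51, 38 and 27 counts in PB-4 replicates 1 to 3, which makes it at least 35.3-fold higher against a floor of 3 counts over the group, and at least 22.3-fold without ATRA replicate 3. miR-384-5p had 17, 19 and 16 counts with PB-4 (at least 15.8-fold, and at least 9.99-fold without ATRA replicate 3). miR-344e-3p had 5, 14 and 15 counts and was at least 10.4-fold higher (at least 6.53-fold without ATRA replicate 3). miR-670-5p, likewise chosen after its values were seen, had 1 count with ATRA and 62 with PB-4 in sum, a ratio of 56.6 with a 95% counting interval of 9.80 to 2273. Intervals and floors cover counting error only.

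Members of a seed group did not always move together. Of 100 seed groups with at least 2 tested miRNAs, 15 had 2 or more called members, and 12 of these moved in 1 direction. In the GUAAACA group, miR-30c-5p and miR-30e-5p were lower while miR-384-5p was higher. In the AUUGCAC group, miR-92a-3p was lower (-0.95) and miR-92b-3p higher (0.73 ± 0.14, adjusted p = 0.00779). In the AGGAGCU group, miR-708-5p, chosen after its values were seen, fell from 19.5, 39.8 and 41.8 CPM to 1.99, 5.74 and 2.36 CPM (log2 fold change -3.26 ± 0.56, adjusted p = 0.0115), while miR-28a-5p was higher by 0.43. That call held in 6 of 14 alternatives and was lost without ATRA replicate 1, ATRA replicate 3, PB-4 replicate 1, PB-4 replicate 2 or PB-4 replicate 3, with an adjusted p of up to 0.13. These opposite members differ in sequence beyond the seed, which is in capitals. miR-30c-5p, miR-30e-5p and miR-92a-3p are listed further above. miR-30a-5p is shown for its GUAAACA seed only, as it did not pass (-0.09, adjusted p = 0.84).
miR-384-5p: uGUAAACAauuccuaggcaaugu
miR-30a-5p: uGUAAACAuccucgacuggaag
miR-92b-3p: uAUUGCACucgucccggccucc
miR-708-5p: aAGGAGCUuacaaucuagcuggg
miR-28a-5p: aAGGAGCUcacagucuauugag

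Where 1 mature strand comes from several hairpins, the other arm can tell the loci apart. Over 22 miRNAs, 44 arms named for 1 locus were tested and 14 passed. Of these, let-7a-1-3p and let-7c-2-3p share a run of 22 bases, so they do not tell their loci apart. miR-30c-1-3p, from chromosome 4, fell from 337, 274 and 217 CPM to 76.4, 70.9 and 70.3 CPM (log2 fold change -1.88 ± 0.15, adjusted p = 2.91e-05). miR-30c-2-3p, from chromosome 1, had a log2 fold change of -0.42 ± 0.14 and did not pass (adjusted p = 0.0801). miR-129-2-3p rose by 3.29 on the log2 scale and miR-129-1-3p by 0.55 ± 0.13 (adjusted p = 0.019), and the latter call was lost without ATRA replicate 1, ATRA replicate 2, PB-4 replicate 1, PB-4 replicate 2 or PB-4 replicate 3, with an adjusted p of up to 0.146. miR-125b-1-3p rose from 1.79 ± 1.27 to 21.1 ± 4.18 CPM (SD, n = 3), while miR-125b-2-3p was at 401 and 413 CPM. miR-7a-2-3p was higher and miR-7a-1-3p lower (3.30, adjusted p = 0.018, and -0.67, adjusted p = 0.023). The call of miR-7a-2-3p was lost without ATRA replicate 3, PB-4 replicate 1, PB-4 replicate 2 or PB-4 replicate 3, with an adjusted p of up to 0.0681, and that of miR-7a-1-3p was lost without ATRA replicate 1, PB-4 replicate 1, PB-4 replicate 2 or PB-4 replicate 3, with an adjusted p of up to 0.108. Differences between arms were not tested. The sequences of the arms of miR-30c and miR-125b follow, and each pair differs in several bases.
miR-30c-2-3p: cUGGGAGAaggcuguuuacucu
miR-125b-1-3p: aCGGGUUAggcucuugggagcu
miR-125b-2-3p: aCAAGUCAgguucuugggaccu

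**Figure D4:**
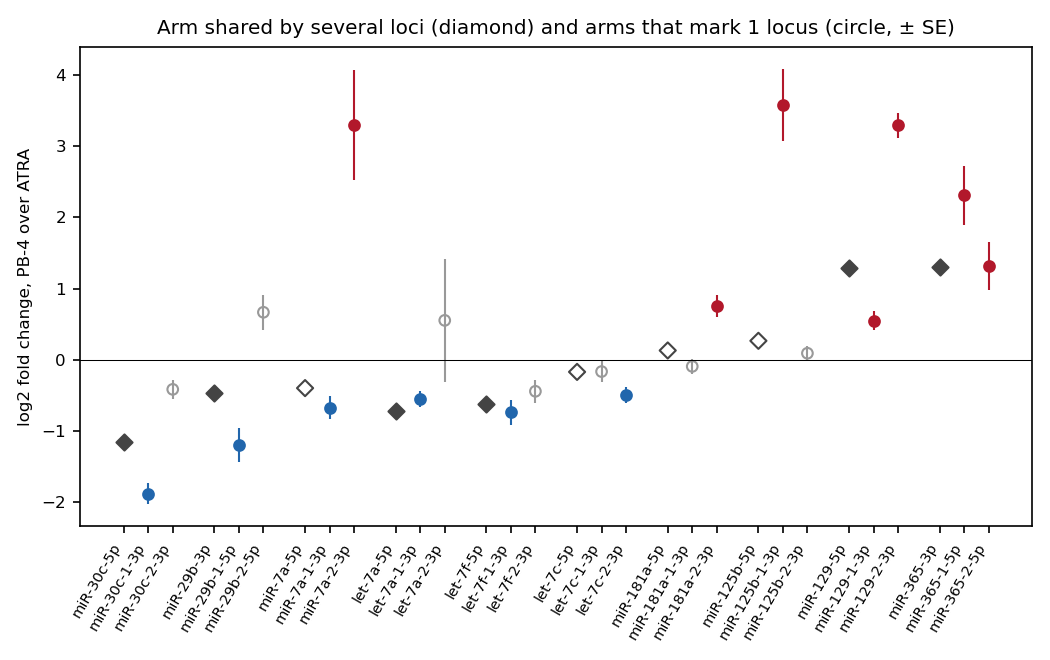
Log2 fold change (PB-4 over ATRA) of arms that mark 1 locus (circles, bars 1 standard error) beside the arm that several loci share (diamonds), filled where the test was passed, for 10 miRNAs. The chromosome 4 arm miR-30c-1-3p (-1.88) lies apart from miR-30c-2-3p (-0.42), and miR-129-2-3p (3.29) lies above miR-129-1-3p (0.55). The circles of let-7a-1-3p and let-7c-2-3p are exceptions, as these arms share a run of 22 bases and do not each mark 1 locus.

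Both arms were tested for 334 hairpins. Where at least 1 arm passed, the arms had the same sign in 106 hairpins and opposite signs in 19. In 89 only 1 arm passed. In 36 both passed, in 1 direction each, but these hairpins hold 67 distinct mature strands, since copies of a hairpin such as those of miR-9 share theirs. Of 33 clusters of hairpins within 10 kb that held a called member, 19 had 2 or more called strands, again in 1 direction each. In some of these 19 the called strands were only the arms of 1 hairpin, as with miR-99b, miR-9 and miR-29b. The X chromosome held 27 higher of 107 tested miRNAs (25.2%) and chromosome 7 16 of 78 (20.5%), against 9.45% over all. These shares repeat lists given above in part. On the X chromosome 10 were of the miR-322 and miR-503 cluster and 9 of the X-linked testis miRNAs. On chromosome 7 8 were of the miR-344 family and 2 of the miR-290 cluster. Counting entries that share sequence or lie on opposite strands once left 112 higher and 62 lower miRNAs.

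The control libraries place these differences, and as both comparisons use them, the values stand side by side. For miR-221-3p the log2 fold change against control was 1.42 ± 0.17, adjusted p = 0.00109 with ATRA and -0.05 ± 0.13, adjusted p = 0.832 with PB-4. For miR-30e-5p it was 1.67 ± 0.19, adjusted p = 8.32e-04 with ATRA and 0.25 ± 0.15, adjusted p = 0.336 with PB-4, and miR-9-5p gave 1.07 ± 0.15, adjusted p = 0.00206 and 0.02 ± 0.10, adjusted p = 0.911. These 3 miRNAs were higher with ATRA than in control cells, where 2.06% of tested miRNAs were higher and 1.32% lower over all. miR-218-5p gave -0.04 ± 0.15, adjusted p = 0.962 with ATRA and 2.05 ± 0.11, adjusted p = 4.35e-07 with PB-4. miR-92a-3p gave 0.10 ± 0.14, adjusted p = 0.872 with ATRA and -0.79 ± 0.09, adjusted p = 1.53e-04 with PB-4. So miR-218-5p was above, and miR-92a-3p below, control cells with PB-4, where 11.9% of tested miRNAs were higher and 4.65% lower over all.

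Host genes were read in the total RNA libraries of the same groups, where 10.3% of 19521 genes were higher and 1.94% lower in PB-4-treated cells. A host is a gene whose span holds the hairpin on the same strand, but for 8 of the 67 tested hosts (Arrb1, C430049B03Rik, Gm40190, Gpc1, Hoxb3, Hoxc5, Rnf215 and Tln2) no strand was given and the span alone was used. Of 36 tested hosts of miRNAs higher in PB-4, 16 were higher, 1 was lower (Rpl13a) and 19 did not pass, with a median log2 fold change of 1.63 against 0.04 over all genes. With the replicate number as a block 25 were higher and 1 lower. The shares over all genes above are from the fit without the block, so blocked counts cannot be read against them. The 16 became 10 without ATRA replicate 1 and 10 without PB-4 replicate 1, and 11 to 15 without another library. Of 31 tested hosts of miRNAs lower in PB-4, 0 were higher and 4 lower, with a median of -0.27, and with the block 1 was higher and 8 were lower. The 4 became 2 without ATRA replicate 1, 2 without PB-4 replicate 1 and 1 without PB-4 replicate 2, and 3 to 5 otherwise. Pde2a, the host of miR-139, was at 0.0326, 0.0277 and 0.344 CPM with ATRA (1, 1 and 4 counts) and at 8.18, 7.21 and 19.1 CPM with PB-4 (6.99 ± 0.86, adjusted p = 0.00145). Gabre, the host of miR-224 and miR-452, rose by 4.50 ± 0.71 on the log2 scale (adjusted p = 0.00423). Egfl7, the host of miR-126a, was at 21.2, 20.1 and 28.8 CPM with ATRA and 58.2, 78.0 and 159 CPM with PB-4 (2.12 ± 0.38, adjusted p = 0.00725). A230057D06Rik, a long non-coding gene that spans 6 of the called miR-344 strands, rose by 5.08 ± 0.84 (adjusted p = 0.00531). C430049B03Rik, whose strand is not given and which holds miR-322, miR-503 and miR-351, rose by 2.65 ± 0.44 (adjusted p = 0.00535). Mir670hg, the transcript of miR-129-2 and miR-670, rose by 4.57 ± 1.00 (adjusted p = 0.0186), with an adjusted p of 0.0874 without ATRA replicate 1, 0.0519 without ATRA replicate 2 and 0.055 without PB-4 replicate 1. Slit2, of miR-218, rose by 2.32 ± 0.65 with an adjusted p of 0.04999, and 0.133 at most with 1 library left out (lost without ATRA replicate 1, PB-4 replicate 1 or PB-4 replicate 2). miR-218-5p can also come from Slit3, which was not tested. The other arms were scarce and did not pass. miR-218-1-3p, of Slit2, was at 1.59 and 1.70 CPM (0.14 ± 0.56, adjusted p = 0.933), and miR-218-2-3p, of Slit3, gave 0.29 ± 1.48 (adjusted p = 0.95).

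Among hosts of lower miRNAs, Nfyc, a subunit of the CCAAT-binding factor NF-Y and the host of miR-30e and miR-30c-1, was at 57.4, 57.2 and 80.3 CPM with ATRA and 28.6, 27.5 and 26.7 CPM with PB-4 (-1.19 ± 0.22, adjusted p = 0.00828). Without PB-4 replicate 2 its adjusted p was 0.0537. Trpm1, the host of miR-211, fell by 1.83 on the log2 scale (adjusted p = 0.0187), and its adjusted p was 0.0614 without ATRA replicate 1, 0.059 without PB-4 replicate 1 and 0.0525 without PB-4 replicate 2. C130071C03Rik, the host of a miR-9 hairpin, fell by 1.62 (adjusted p = 0.00795). Tenm4, which holds miR-708, did not pass (-0.97 ± 0.29, adjusted p = 0.0645) but passed with the block (adjusted p = 1.60e-04). Mir17hg, the miR-17-92 transcript, had a log2 fold change of -0.82 ± 0.46 (adjusted p = 0.296), and Chpf2, which holds miR-671, -0.01 ± 0.29 (adjusted p = 0.988). Rpl13a, lower while miR-5121 (chosen after its values were seen) was higher, lost its call without ATRA replicate 1, ATRA replicate 2, PB-4 replicate 1 or PB-4 replicate 2 (adjusted p up to 0.14).

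**Figure D5:**
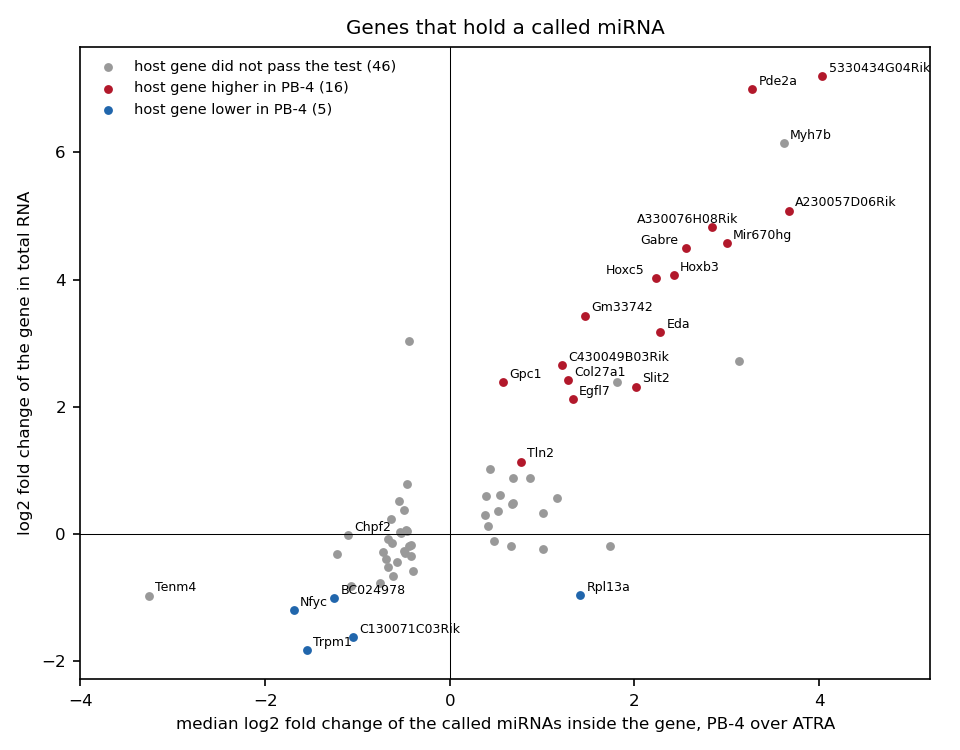
Each point is a gene that holds a called miRNA, with the median log2 fold change of its called miRNAs (PB-4 over ATRA, horizontal) against its own log2 fold change in total RNA (vertical), coloured by the host's test. Of the 67 hosts 53 have the same sign as their miRNAs, and Rpl13a is the only host past the threshold on the other side of 0 from its miRNA.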

How the data were processed

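Small RNA and total RNA of B16 cells (untreated, or treated with ATRA or PB-4) were sequenced by the authors, 3 libraries per group and assay. The authors deposited raw counts per mature miRNA and per gene. The submitters' processing notes name BWA for miRNA, HISAT2 2.0.4 for total RNA, and GRCm38 (mm10). The counter, annotation, strand setting and treatment of reads with several places were not stated in the sources used, so near-identical miRNAs and opposite strands may share reads. miRNA libraries of the 6 samples held 4214693 to 6856229 counts, and total RNA libraries of these groups 12632669 to 36176443. Groups follow the sample labels.

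PB-4 was compared with ATRA by edgeR 4.0.16 (R 4.3.3) quasi-likelihood F-tests (robust, TMM, at least 10 counts summed over the 6 libraries), with Benjamini-Hochberg adjustment at 0.05. Standard errors were derived from the log2 fold change and the F statistic. CPM used TMM over all 9 miRNA libraries. Host genes were tested alike in total RNA, leaving out 27 date-named or repeated rows of 46095. Same-numbered total RNA libraries deviated together (correlations 0.53, 0.62 and 0.72), so the blocked value stands beside host results it changes. Replicates 1 and 2 also did so across numbers (0.69 for ATRA replicate 2 with PB-4 replicate 1, and 0.47 for ATRA replicate 1 with PB-4 replicate 2). Replicate 3 deviated against both (-0.56 to -0.74). The numbers 1 and 2 are thus not shown to pair. Scripts were tested on simulated data. Alternatives (14) were RLE factors, library totals, DESeq2 1.42.0, limma 3.58.1 voom, other filters, 9 libraries, the block and each library left out.

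Named miRNAs were miR-344d-3-5p, the 12 largest differences per direction at 50 CPM or more, up to 4 per list, the 10 most abundant, and their arm, seed and cluster partners. Any other, apart from cell type markers and host genes, is said to be chosen after its values were seen. The members and the 26 lists were chosen with earlier results of these data known. Sequences are from RefSeq (GRCm38.p6), which matched 1679 of 1978 miRNAs. Ratios against 1 to 3 counts carry exact 95% binomial intervals.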

Additional observations from a re-analysis of the deposited data

How the results depend on the processing

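The number of miRNAs higher in PB-4-treated cells was 183 with library totals only and 67 with the replicate block, and 62 to 96 with any 1 library left out (62 without PB-4 replicate 1, 69 without PB-4 replicate 3 and 76 without PB-4 replicate 2). The number lower was 36 with library totals only, 100 with filterByExpr, 38 with the replicate block and 26 to 73 with any 1 library left out (26 without PB-4 replicate 1 and 32 without PB-4 replicate 3). At least 2-fold higher were 51 with the replicate block and 53 to 75 with 1 library left out (53 without PB-4 replicate 1). Other settings kept these counts within 1.5 times.

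Same-numbered miRNA libraries did not deviate together (correlations 0.42, -0.81 and -0.66), so the numbers do not pair them. The highest correlations were between ATRA replicate 2 and PB-4 replicate 3 (0.86) and between ATRA replicate 3 and PB-4 replicate 2 (0.83), that is, across numbers. Whether the miRNA libraries carry the right numbers was not tested. With the replicate block 5 miRNAs were higher in the miR-344 family, 3 among the X-linked testis miRNAs, 0 among the Dlk1-Dio3 miRNAs and 7 among the neuronal miRNAs, and 4 let-7 strands and 1 of the Hox list were lower. Directions of small differences turned with the scaling. let-7c-5p was 0.055, miR-30d-5p 0.048 and miR-30a-5p 0.13 on the log2 scale with library totals only. miR-30a-5p ranged from -0.27 to 0.0037 with 1 library left out. miR-26a-5p was -0.088 with RLE size factors, -0.088 with DESeq2, -0.030 with no filter, -0.041 with filterByExpr, -0.043 with all 9 libraries and -0.078 to 0.074 with 1 library left out. The cause was not tested. Of 81 named miRNAs past the threshold 49 passed under all 14 alternatives. Among values of host genes under the alternatives, 29 no longer passed and 153 kept direction and call.

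Of miRNAs under 50 CPM 7.26% passed, against 43.2% at 50 CPM and above. The part of depth in this was not tested.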
